A study of Mus musculus with 12 samples.

Results

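Type I interferon response genes were followed in CD8+ T cells from mouse spleen that carried Senp1 (WT) or had it knocked out (CKO), before and after stimulation. The set holds 42 named genes: the receptor chains, the transcription factors that act below them, and genes that interferon switches on. Rows of the raw count table were matched to these symbols by Ensembl ID, and 42 of 42 were found among 56691 gene IDs. All 42 also passed the filter on low counts, which left 15935 genes for testing. SENP1 is a protease that takes the small protein SUMO off other proteins, and the title of the series asks for its role in CD8+ T cell activation.

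There were 4 groups of 3 libraries each, made with a poly(A) kit that keeps strand. Senp1 WT 0 h and Senp1 CKO 0 h were naive cells that were not stimulated. Senp1 WT 48 h and Senp1 CKO 48 h were naive cells stimulated over 48 h by anti-CD3 at 5 µg/ml, in place of antigen, together with anti-CD28 at 1 µg/ml, in place of costimulation. Strain, age, the Cre driver behind the knockout and any pooling of animals are not given in the labels. Nor do they say that replicates are separate mice, so the p-values reflect only how much these libraries vary, which may be technical variation. In bulk RNA, fewer cells of a type and less RNA per cell cannot be told apart.

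Type I interferons (the interferon alpha family and interferon beta) bind a receptor made of IFNAR1 and IFNAR2. The kinases TYK2 and JAK1 then phosphorylate STAT proteins, among them STAT2, which acts with IRF9 in the complex ISGF3, and ISGF3 binds a DNA element, the interferon-stimulated response element (ISRE), in front of target genes. The products include sensors of viral RNA, proteins that block viral translation or replication, and brakes on the receptor. In CD8+ T cells, type I interferon is known as a signal that acts beside antigen and costimulation.

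The stretches printed here show the ISRE core as it stands before 6 members, chosen to span different measured responses. Isg15, Bst2 and Oas3 rose in both genotypes, Ifit1 and Rsad2 passed the test in WT only, and Ifit3 passed it in neither. None of the 6 was called lower with stimulation. The core was searched as GAAANNGAA on both strands, where it reads TTCNNTTTC on the other strand. Sequences are from RefSeq, build GRCm38.p6, 5′ to 3′ on the gene's strand, and the capitals mark every match, overlapping ones run together. All lie before the annotated start site.
Isg15, chr4:156200856-156200916, minus strand: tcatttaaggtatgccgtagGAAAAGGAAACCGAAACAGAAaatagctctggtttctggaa
Bst2, chr8:71537568-71537622, minus strand: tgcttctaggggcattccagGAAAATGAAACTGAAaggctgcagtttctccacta
Oas3, chr5:120777700-120777754, minus strand: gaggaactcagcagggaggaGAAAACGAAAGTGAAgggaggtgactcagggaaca
Ifit1, chr19:34640760-34640833, plus strand: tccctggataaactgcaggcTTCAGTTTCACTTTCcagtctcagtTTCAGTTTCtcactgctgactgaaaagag
Ifit3, chr19:34583354-34583455, plus strand: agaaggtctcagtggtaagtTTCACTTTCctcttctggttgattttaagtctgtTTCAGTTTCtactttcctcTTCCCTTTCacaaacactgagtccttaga
Rsad2, chr12:26456543-26456591, minus strand: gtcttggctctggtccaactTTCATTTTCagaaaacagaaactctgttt
In Isg15, 3 overlapping matches lay 62 to 74 bases before the start site, and Oas3 and Bst2 each held 2 overlapping matches. In Ifit1 and Ifit3, 3 matches each stood on the other strand, at 80 to 105 and 98 to 151 bases before the start site. Of the 42 members, 33 had a RefSeq window of 300 bases (250 before the start site and 50 after it), and 16 of them (48.5%) held the core, against 9.76% of 27025 genes of the table with such a window. The interferon gamma activation site, searched as TTCNNNGAA, which reads the same on both strands, stood in 10 of 33 (30.3%) against 9.55% of all genes, and 4 members held both. The windows of Ifit2, Isg20, Pml, Sp100 and Trim30c held no match to the ISRE core in these letters. Of the members that fell in both genotypes, Slfn5 held matches 128 to 151 bases before the start site. Ddx58 held a match 7 bases after the start site. Ifnar1, Irf9, Irf7 and Sp100 held none, and Oas2 had no window. A match is a description of the letters, and binding was not measured.

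The libraries held 15900529 to 22427151 counts in genes. Levels are given as CPM (counts per 1000000 of a library after TMM scaling), and a gene was called changed at a Benjamini-Hochberg adjusted p under 0.05 in edgeR's quasi-likelihood test over all genes tested. Senp1 itself stood at 82.3 ± 3.98 CPM (SD, n = 3) in WT and 56.9 ± 2.65 in CKO at 0 h, and at 162 ± 10.4 and 70.2 ± 4.13 at 48 h, so its RNA was lower in all 6 CKO libraries than in the WT libraries of the same time but not lost. The summed level of 7 CD8 T cell markers was 3879 to 4061 CPM in WT and 3736 to 3998 in CKO at 0 h, and 1948 to 1992 and 1678 to 1752 at 48 h.

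Stimulation changed most members, and more of them upward than downward. In WT cells 26 of 42 were higher at 48 h (61.9%), where 38.7% of all genes tested were higher, and 8 were lower (19%), against 39.1% of all genes. In CKO cells 22 were higher (52.4%; 38.5% of all genes) and 8 were lower (19%; 39.2% of all genes). The median log2 change of the members was 0.77 in WT and 0.43 in CKO, and that of all genes was -0.03 and -0.04. Of the members, 21 were higher in both genotypes and 7 were lower in both. The share of all genes called in both genotypes was not counted, so these counts have no background beside them. The comparisons of the 2 genotypes use separate libraries and share 1 estimate of the spread.

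**Figure D1:**
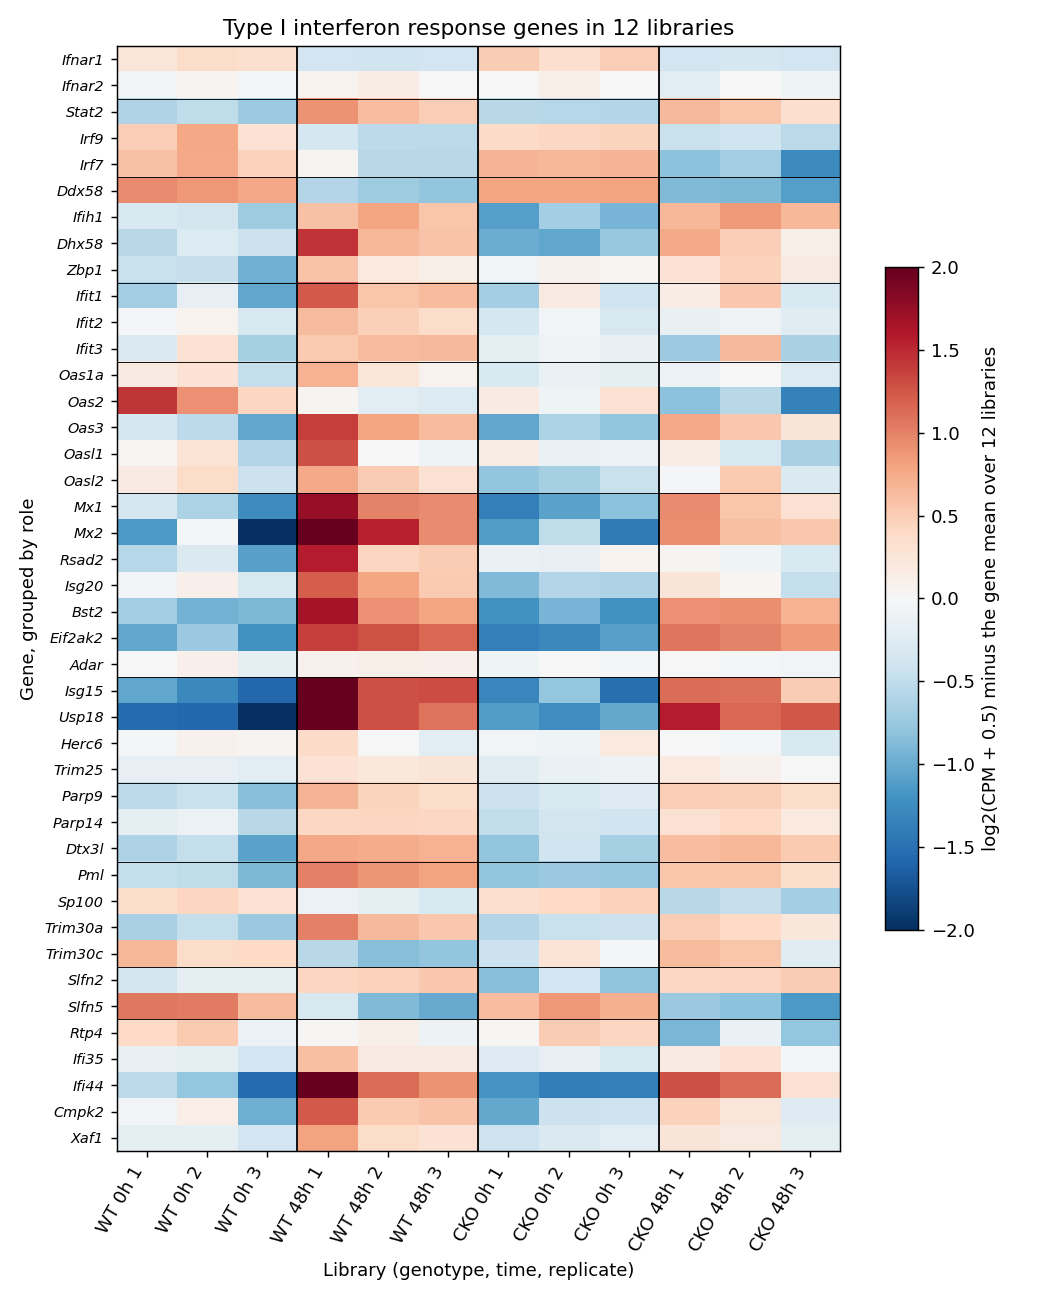
Level of each of the 42 genes (rows, grouped by role) in each of the 12 libraries (columns), as log2(CPM + 0.5) minus the gene's mean over the libraries; red is above the mean, blue below, and colours end at 2 log2 units. Most rows turn from blue to red between 0 h and 48 h, and the rows of Ifnar1, Irf9, Irf7, Ddx58, Oas2, Sp100 and Slfn5 turn the other way.

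Both receptor chains were present in every library. Ifnar1 stood at 173, 190 and 184 CPM in WT at 0 h and at 113, 111 and 112 at 48 h. All 3 stimulated libraries were below all unstimulated ones, a log2 change of -0.70 ± 0.06 (SE, adjusted p = 2.07e-09). The CKO libraries went from 186 to 210 CPM down to 113 to 117 CPM, a change of -0.82 ± 0.061 (adjusted p = 2.17e-10). Ifnar2 changed in neither genotype by the test (0.09 in WT, adjusted p = 0.299; -0.14 in CKO, adjusted p = 0.102), and its 12 libraries lay between 43.6 and 56.1 CPM.

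The members of the ISGF3 complex moved in opposite directions. Stat2 rose from 47.0 to 55.1 CPM over the WT 0 h libraries to 110 to 147 at 48 h (log2 change 1.29 ± 0.0999, adjusted p = 1.89e-09), and in CKO from 52.1 to 53.0 up to 99.02 to 123 CPM (1.10 ± 0.1, adjusted p = 1.89e-08). Irf9, the DNA-binding part of the complex, fell in both, from a mean of 126 ± 21.5 CPM (SD, n = 3) to 62.5 ± 4.39 in WT and from 115 ± 2.9 to 63.0 ± 3.32 in CKO. Irf7, the factor that drives later interferon alpha production, fell as well, from 85.8 ± 8.79 to 44.9 ± 11.6 CPM in WT and from 90.2 ± 0.655 to 29.9 ± 6.07 in CKO. No stimulated library of Irf9 or Irf7 reached the lowest unstimulated one of its genotype.

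The 3 cytosolic RNA sensors of the RIG-I family also parted. Ddx58, which encodes RIG-I itself, had 152, 145 and 135 CPM in WT at 0 h and 52.3, 48.0 and 45.4 at 48 h. This fall of 1.57 ± 0.073 on the log2 scale (adjusted p = 1.45e-13) gave it the smallest adjusted p of the 42 members in WT, and in CKO it fell by 1.77 ± 0.075 (adjusted p = 3.04e-14). Ifih1, which encodes MDA5, the sensor of long double-stranded RNA, rose by 1.10 ± 0.114 in WT (adjusted p = 6.97e-08) and by 1.65 ± 0.118 in CKO (adjusted p = 3.45e-10). Dhx58, which encodes LGP2, a relative without a signalling domain, rose in both (log2 change 1.40 in WT and 1.46 in CKO). Zbp1, a sensor of Z-form nucleic acid, went from 63.4 to 90.6 CPM up to 135 to 185 CPM in WT, a log2 change of 0.92. In CKO it began higher, at 119 to 132 CPM, and reached 140 to 172 CPM without overlap, which did not pass the test (adjusted p = 0.0987) but passed it in a fit of the CKO libraries alone (0.0027).

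Among the IFIT genes, whose products bind viral RNA and block its translation, Ifit1 and Ifit2 passed the test in WT, and none of the 3 passed it in CKO (unadjusted p 0.238, 0.423 and 0.929, and DESeq2 also called none). Ifit1 rose from 14.2, 20.7 and 11.1 CPM to 55.0, 34.5 and 36.3 in WT (log2 change 1.44, adjusted p = 0.00364), and the CKO libraries held 14.4, 26.3 and 17.6 CPM at 0 h and 25.9, 34.1 and 18.8 at 48 h (0.43, adjusted p = 0.271). Ifit2 stood at 51.1, 55.0 and 41.9 CPM before and 81.5, 73.5 and 68.3 after stimulation in WT, and at 41.0, 50.9 and 41.9 before and 47.6, 50.01 and 44.3 after it in CKO. The WT libraries of Ifit2 separate fully by time, and the CKO libraries of both genes overlap between times. Ifit3 passed the test in neither genotype; its CKO 48 h libraries held 12.3, 32.5 and 13.0 CPM. Without replicate 2 of these, its CKO change was -0.56 (adjusted p = 0.026). The difference between the genotypes' responses did not pass the test for any of the 3 (adjusted p 0.435, 0.107 and 0.658). In alternative fits that of Ifit2 passed with the replicate number as a block (adjusted p = 0.026). That of Ifit3 passed without replicate 2 of the CKO 48 h libraries (-1.35, adjusted p = 0.0282). Ifit3 has a near-identical copy, Ifit3b, and how reads shared between them were counted is not given in the sources used here.

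The OAS family includes enzymes that make the short RNA messenger that turns on RNase L. Oas3 rose from 32.2 to 52.0 CPM up to 103 to 175 CPM in WT (log2 change 1.59) and from 32.2 to 42.7 up to 79.8 to 113 in CKO (1.35). Oas2 fell in both, from a mean of 20.9 ± 7.4 CPM (SD, n = 3) to 9.36 ± 1.23 in WT and from 11.4 ± 1.62 to 5.42 ± 1.57 in CKO. Oas1a and Oasl1 passed the test in neither genotype, and Oasl2 passed it in CKO (0.77, adjusted p = 0.0113) with a WT change of 0.47 (adjusted p = 0.0772). Oas1a belongs to a cluster of near-identical copies, so its counts are uncertain.

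Of 7 other antiviral effectors, 6 rose in WT and 5 in CKO. Eif2ak2, which encodes PKR, the kinase that halts translation on double-stranded RNA, had 31.0, 38.6 and 27.6 CPM in WT at 0 h and 169, 157 and 143 at 48 h. Its log2 change was 2.27 ± 0.11 in WT (adjusted p = 7.91e-12) and 2.23 ± 0.112 in CKO (adjusted p = 1.28e-11). Bst2 (tetherin, which holds budding virus on the cell surface) rose by 2.04 in WT and 1.99 in CKO, and Mx1, a dynamin-like GTPase that traps viral particles, by 2.0 and 1.73. Mx2, its relative, rose by 2.55 and 1.73, with WT 0 h libraries that ranged from 2.32 to 13.9 CPM. Isg20, an exonuclease of RNA, rose by 0.98 and 0.70. Rsad2 (viperin, which makes a chain-ending nucleotide) had 7.38, 9.10 and 4.99 CPM in WT at 0 h and 34.3, 15.2 and 16.1 at 48 h. The CKO libraries held 10.2, 9.98 and 11.7 CPM before and 11.7, 10.5 and 8.95 after stimulation, so its WT libraries separate by time and its CKO libraries overlap. The responses of Rsad2 differed by -1.64 ± 0.448 between the genotypes, which did not pass the test over all genes (adjusted p = 0.129). Adar, which edits adenosine in double-stranded RNA, stayed between 129 and 158 CPM in all 12 libraries and passed the test in neither genotype.

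The ISG15 system held both of the largest rises of the set in WT, and 3 of its 4 genes rose in each genotype. ISG15 is a ubiquitin-like protein that is joined to other proteins, HERC6 is the ligase that attaches it in mice, and USP18 removes it and blocks signalling at IFNAR2. Isg15 had 6.004, 4.96 and 3.98 CPM in WT at 0 h and 59.98, 32.1 and 32.4 at 48 h, against 4.91, 7.32 and 4.20 and then 28.4, 28.1 and 18.6 in CKO. These are fitted rises of 8.30-fold and 4.56-fold. Usp18 went from 12.9, 12.6 and 8.67 CPM to 183, 94.6 and 82.1 in WT (10.5-fold) and from 17.4, 15.9 and 18.7 to 116, 85.8 and 91.5 in CKO (5.62-fold). For both genes the lowest stimulated library exceeded the highest unstimulated one in each genotype, and the difference between the genotypes' responses did not pass the test (adjusted p 0.503 and 0.493). Herc6 passed the test in neither genotype, with 47.5 to 77.3 CPM over all libraries. Trim25, a ubiquitin ligase that acts with RIG-I, rose by 0.44 in WT and 0.25 in CKO.

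Parp9, Parp14 and Dtx3l rose in both genotypes. PARP14 attaches single ADP-ribose units to proteins, and PARP9 and DTX3L form a pair that ubiquitinates proteins. The log2 changes in WT were 1.09 ± 0.0988 for Parp9 (adjusted p = 3.37e-08), 0.69 ± 0.0868 for Parp14 (9.8e-07) and 1.43 ± 0.133 for Dtx3l (8.05e-07). In CKO the changes were 0.78, 0.72 and 1.22. Parp9 and Dtx3l are neighbours that start from 1 shared promoter region, and whether the counting used strand is not given in the sources used here.

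PML and SP100 are the classic parts of PML nuclear bodies, structures whose proteins are well-known targets of SUMO. Pml rose from 94.3, 93.2 and 70.5 CPM to 267, 244 and 232 in WT (log2 change 1.52 ± 0.0945, adjusted p = 9.84e-11), and from 76.2, 78.8 and 78.1 to 195, 194 and 169 in CKO (1.26 ± 0.0948, adjusted p = 1.52e-09). Sp100 went the other way, from 592, 626 and 570 CPM to 426, 406 and 375 in WT (-0.57 ± 0.066, adjusted p = 1.65e-07), and from 586, 612 and 638 to 314, 334 and 289 in CKO (-0.97 ± 0.066, adjusted p = 5.88e-11). Trim30a, which damps NF-kB signalling, rose by 1.36 in WT and 0.86 in CKO. Trim30c, a paralog of Trim30a of less certain function, had 8.18, 6.52 and 6.71 CPM in WT at 0 h and 3.22, 2.52 and 2.68 at 48 h. In CKO it had 3.56, 6.11 and 4.87 CPM at 0 h and 8.004, 7.57 and 4.14 at 48 h. The WT libraries of Trim30c fell without overlap, and the CKO libraries overlapped between times (0.43, adjusted p = 0.109).

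Of the Schlafen genes, which are tied to quiescence and proliferation of T cells, Slfn2 rose and Slfn5 fell in both genotypes. Slfn2 went from 200 to 229 CPM up to 347 to 374 in WT (log2 change 0.71) and from 143 to 198 up to 345 to 366 in CKO (1.12 ± 0.0991, adjusted p = 3.73e-08). Slfn5 fell by 1.65 in WT and by 1.66 in CKO. Of the remaining induced genes, Ifi44, whose product limits virus replication, had the lowest level of the set at 0 h, 0.653 to 1.83 CPM in WT, and rose to 5.71 to 13.1 CPM in WT and 3.64 to 7.67 in CKO. Ifi35 rose by 0.57 and 0.40, and Xaf1, which binds the caspase inhibitor XIAP, by 0.77 and 0.41. Cmpk2, a mitochondrial nucleotide kinase, passed the test in WT (1.05, adjusted p = 0.0134) and missed it in CKO (0.80, adjusted p = 0.0545), where it passed with DESeq2 (0.00912). Rtp4, a receptor transporter protein, fell by 0.93 in CKO and had a WT change of -0.29 (adjusted p = 0.225).

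**Figure D2:**
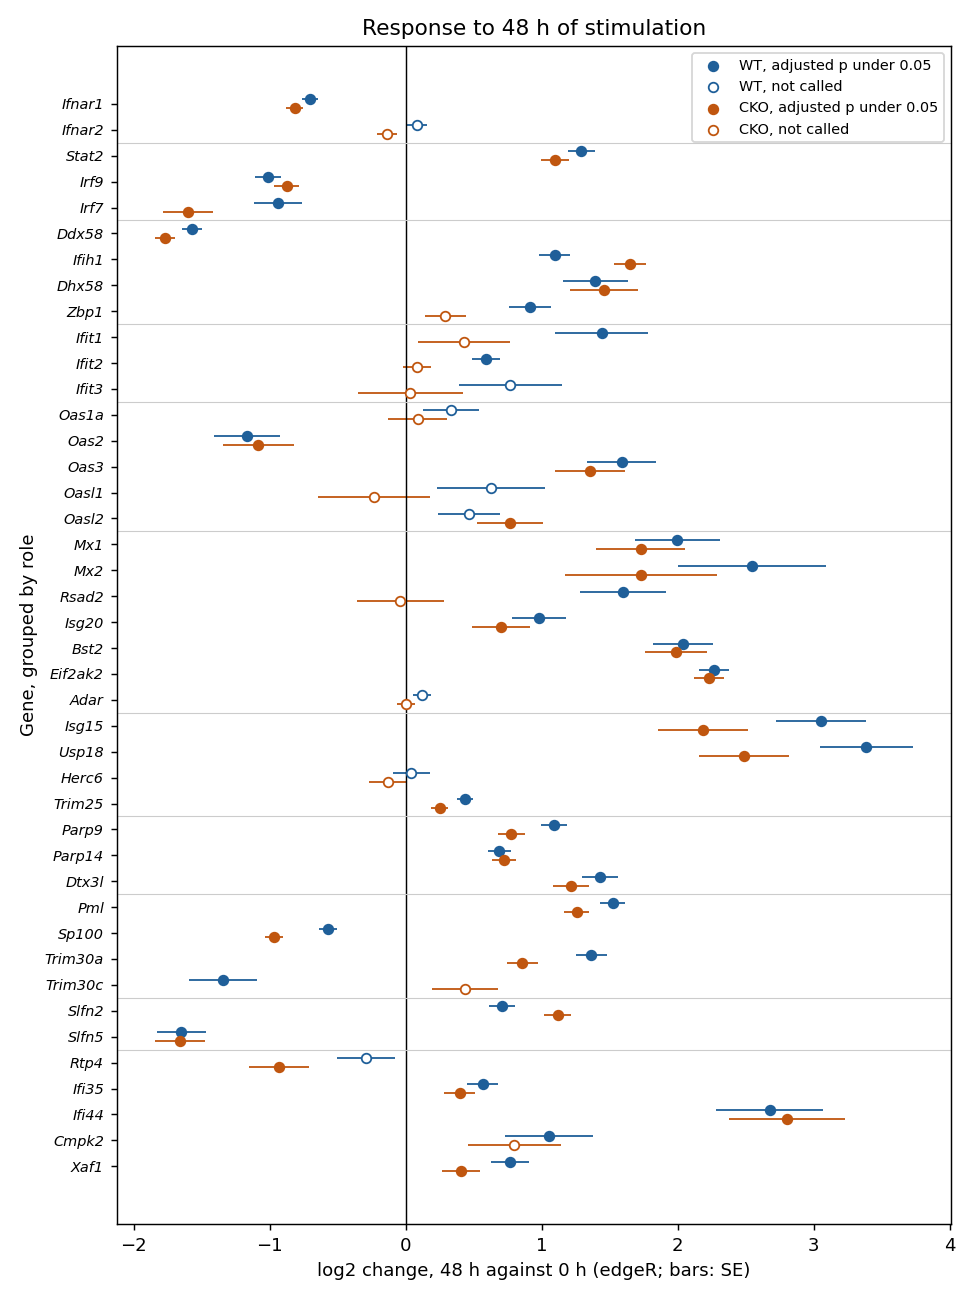
Fitted log2 change from 0 h to 48 h (horizontal axis) of each gene (vertical axis, grouped by role) in WT (blue) and CKO (orange); bars are standard errors, filled points passed the test and open points did not. Points run from -1.65 to 3.39 in WT and from -1.77 to 2.81 in CKO, with Usp18, Isg15 and Ifi44 farthest to the right.

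Per kilobase of annotated exon, which allows genes to be compared, Slfn2 stood highest of the set in every group, at 132 CPM per kb in WT at 0 h and 215 at 48 h. Sp100 was next at 0 h (78.9 CPM per kb in WT) and Trim30a held rank 3 in all 4 groups. Bst2 rose from 34.9 to 144 CPM per kb in WT and came next to Slfn2 at 48 h in both genotypes. Isg15 moved from 6.59 CPM per kb and rank 24 of 42 to 54.9 and rank 4 in WT, and to 33.1 and rank 10 in CKO. Ifi44 stood last in all 4 groups.

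At 0 h the genotypes differed in few members. The CKO cells were lower than WT for 3 of 42 (7.14%), where 3.38% of all genes were lower, and higher for 1 (2.38%), where 4.1% of all genes were higher. Slfn2 was lower, with 143, 198 and 147 CPM in CKO against 200, 228 and 229 in WT (log2 difference -0.43 ± 0.099, adjusted p = 0.0143). Ifih1 was lower at 16.5, 22.3 and 18.7 CPM against 29.3, 28.01 and 21.9 (-0.46 ± 0.121, adjusted p = 0.0244), with the highest CKO library above the lowest WT library. Oas2 was lower at 11.6, 9.74 and 13.0 CPM against 28.8, 19.9 and 14.1 (-0.87 ± 0.242, adjusted p = 0.0439). Zbp1 was higher at 119, 132 and 127 CPM against 90.6, 90.2 and 63.4 (0.63 ± 0.154, adjusted p = 0.0335). Each of these 4 calls ended when some single library was left out, and Oas2 and Slfn2 also lost it in a fit of the 0 h libraries alone (adjusted p 0.109 and 0.118). Counted by libraries that do not overlap, 6 members were lower in CKO (14.3%; 12.6% of all genes) and 4 higher (9.52%; 12% of all genes), both close to the share over all genes. The median difference of the members was -0.06, and it ran from -0.19 without WT 0 h replicate 3 to 0.01 without WT 0 h replicate 2, so its sign depended on the libraries.

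At 48 h more members stood lower in CKO than in WT. Of the 42, 37 had a fitted difference below 0 (88.1%), against 51.5% of all genes, and their median difference was -0.37 on the log2 scale against -0.01 for all genes. In 22 members (52.4%) every CKO library was below every WT library, against 12.2% of all genes. In 1 member (2.38%; 11.5% of all genes), Trim30c, every CKO library was above. The test over all genes called 5 members lower (11.9%), where 2.19% of all genes were lower, and 1 higher (2.38%; 2.35% of all genes). So the direction was shared by most members, and most single differences, such as -0.73 ± 0.284 for Isg15 (adjusted p = 0.224) and -1.07 ± 0.306 for Rsad2 (adjusted p = 0.0849), did not pass. Without WT 48 h replicate 1 these differences were -0.37 and -0.60, and with DESeq2 that of Rsad2 passed (adjusted p = 0.00328). In all, 11 of the 36 members not called passed the test in at least 1 alternative. Gains over all genes were not counted in this way, and without a count filter 1204 genes in all were called in place of 724.

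The 5 called lower were Ifit2, Sp100, Isg20, Pml and Ddx58. Ifit2 had the smallest adjusted p of them, with 44.3 to 50.01 CPM in CKO and 68.3 to 81.5 in WT, a log2 difference of -0.65 ± 0.101 (adjusted p = 0.000575). Sp100 differed by -0.36 ± 0.066 (adjusted p = 0.00217), from 289 to 334 CPM in CKO against 375 to 426 in WT. Isg20 had 12.1, 10.3 and 7.08 CPM in CKO and 23.9, 17.6 and 14.7 in WT (-0.93 ± 0.197, adjusted p = 0.00936). Pml differed by -0.41 ± 0.092 (adjusted p = 0.0135) and Ddx58, at 36.3 to 42.5 CPM against 45.4 to 52.3, by -0.27 ± 0.075 (adjusted p = 0.0462). In all 5 the groups did not overlap. Trim30c was higher in CKO by 1.22 ± 0.251 (adjusted p = 0.00607), on raw counts of 82 to 143 per CKO library and 48 to 62 per WT library. It belongs to a cluster of near-identical TRIM30 copies that could share reads, so its level is uncertain. Ifit2, Sp100 and Trim30c kept their call in all 14 alternatives tried. Without CKO 48 h replicate 3, Isg20 (adjusted p = 0.0558), Pml (0.075) and Ddx58 (0.255) lost it. Ddx58 lost it in 8 further alternatives, and Isg20 in a fit of the 48 h libraries alone (adjusted p = 0.0678).

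The other 17 members whose libraries did not overlap came from every role except the receptor, the sensors and the Schlafen genes. They were Irf7, Ifit1, Oas1a, Oas2, Mx1, Mx2, Rsad2, Eif2ak2, Adar, Isg15, Trim25, Parp14, Dtx3l, Trim30a, Rtp4, Cmpk2 and Xaf1, with differences from -0.12 for Parp14 to -1.07 for Rsad2. Ifnar1, Irf9, Ifih1 and Zbp1 had differences of 0.03, 0.01, 0.09 and 0.01, and Slfn2 of -0.02, and none passed the test.

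**Figure D3:**
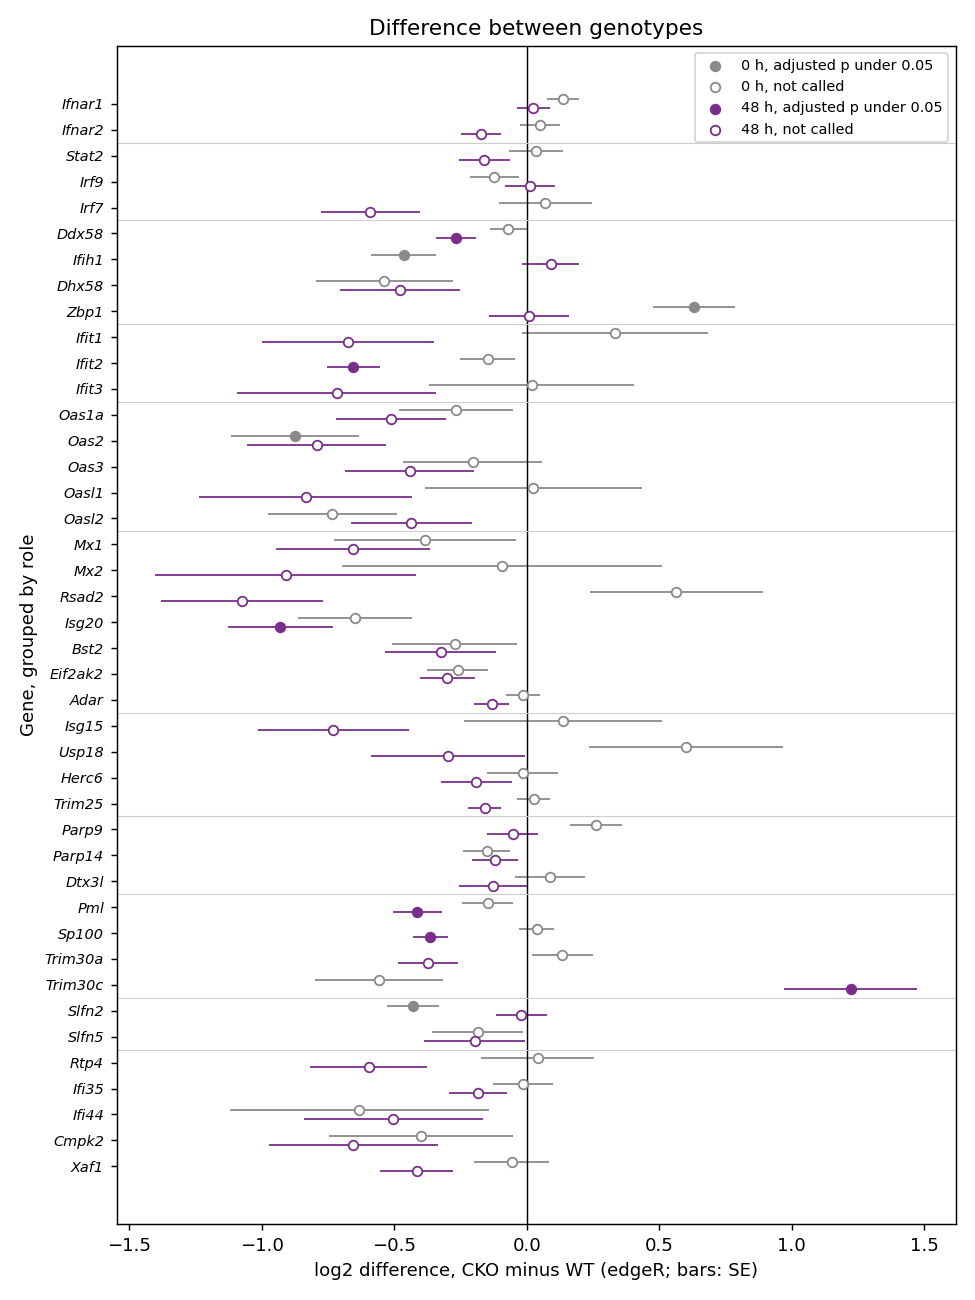
Fitted log2 difference CKO minus WT (horizontal axis) of each gene (vertical axis, grouped by role) at 0 h (grey) and 48 h (purple); bars are standard errors, filled points passed the test and open points did not. At 48 h 37 of the 42 points lie left of 0, and Trim30c lies farthest right at 1.22.

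**Figure D4:**
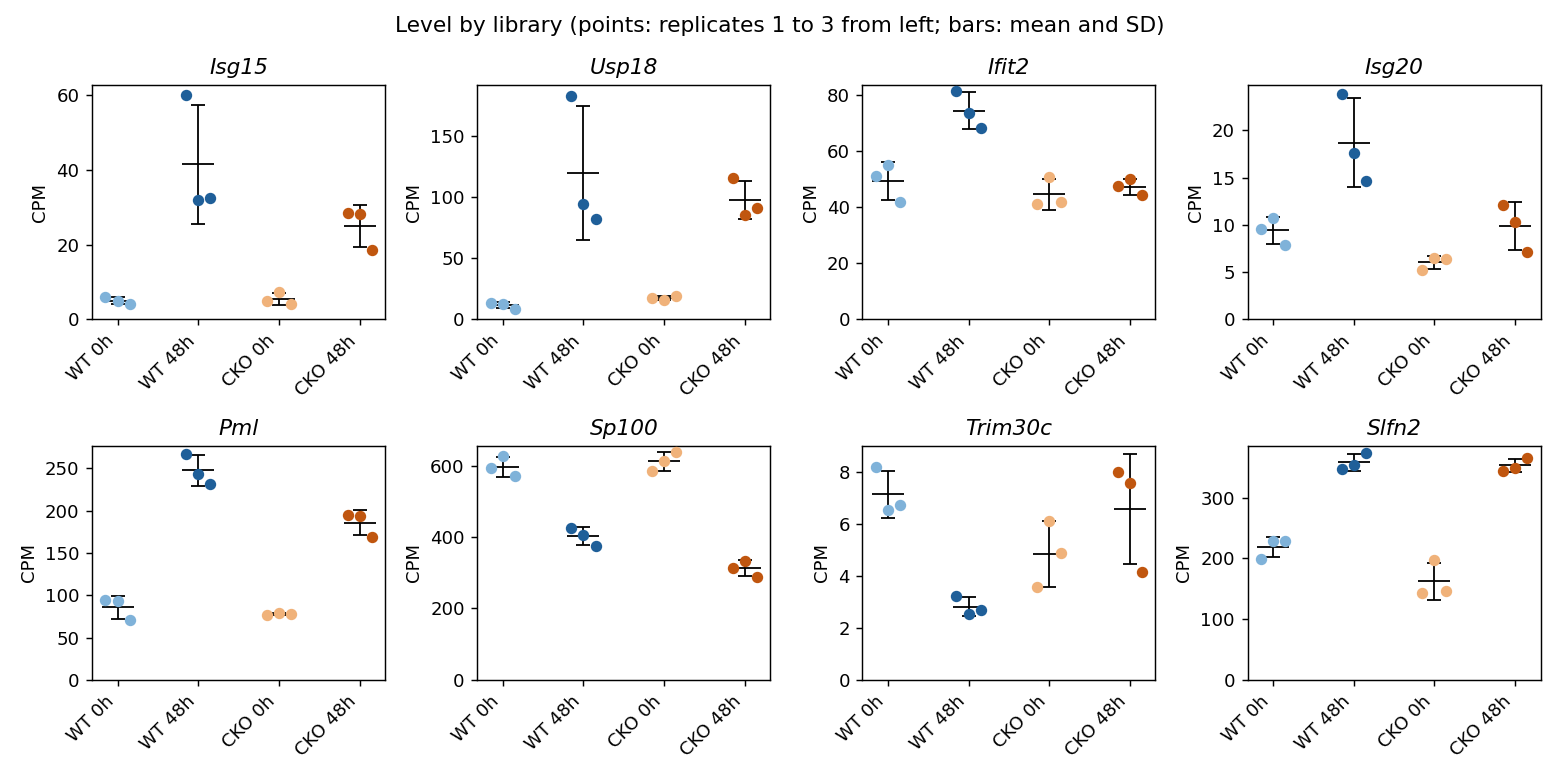
Level in CPM (vertical axis, from 0) of 8 genes in each of the 4 groups; points are libraries, with replicates 1 to 3 from left to right, and black marks are the mean and SD. WT 48 h replicate 1 is the highest point of its group for Isg15, Usp18, Ifit2, Isg20, Pml, Sp100 and Trim30c, and Slfn2 does not share this.

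Whether the response itself differed between the genotypes was tested as the CKO change minus the WT change. Of the 42 members, 33 had a difference below 0 (78.6%; 50.9% of all genes), with a median of -0.23 (all genes -0.01). The test called 1 member higher (2.38%; 0.609% of all genes) and 1 lower (2.38%; 0.772% of all genes). Trim30c, which fell in WT, differed by 1.78 ± 0.349 (adjusted p = 0.0112) and kept this call in every alternative tried. Sp100, which fell further in CKO, differed by -0.40 ± 0.093 (adjusted p = 0.0343), and 6 of the 12 fits that left out a library ended this call (adjusted p 0.0562 to 0.102). Ifit1, Ifit2, Rsad2, Cmpk2 and Zbp1 rose by the test in WT and not in CKO, and none of these 5 passed the test of the difference itself. For Ifit2, Rsad2 and Zbp1 this depended on the processing. The difference of Ifit2 passed with the replicate number as a block (-0.51, adjusted p = 0.026) and without a count filter (-0.53, adjusted p = 0.00103). With DESeq2 the difference passed for Rsad2 and Zbp1 (adjusted p 0.00242 and 0.0437). That of Rsad2 also passed without WT 48 h replicate 1 (-1.18, adjusted p = 0.0124). Without that library the median difference of the members was -0.13 in place of -0.23.

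The members moved together between replicates of a group, and this touches each comparison with those libraries. In WT 48 h replicate 1, 35 of 42 members had their highest level of the 3 libraries, where 39.4% of all genes did, and their median stood 0.26 above the group mean on the log2 scale. Usp18 there was 183 CPM against 94.6 and 82.1, and Bst2 was 182 CPM against 108 and 99.4. WT 48 h replicate 3 was the lowest of its group for 30 members (26.4% of all genes). WT 0 h replicate 3 was the lowest for 35 (34.0% of all genes), with a median of -0.25, and CKO 48 h replicate 3 for 37 (31.3% of all genes), with a median of -0.16. Without WT 48 h replicate 1 the median difference between genotypes at 48 h was -0.20 in place of -0.37. That fit called 4 members lower and 1 higher, of 746 genes called in all. Without WT replicate 1 at both times the median was -0.20, with 5 lower and 1 higher, of 902 genes called in all.

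The same library held the most counts from interferon alpha and beta genes. Over Ifnb1 and the numbered interferon alpha genes, 14 in all, no count was found in any 0 h library, which for counting error alone allows up to 3 counts a library. Ifnab, an interferon alpha gene outside this sum, had 4, 3 and 7 counts in WT and 1, 1 and 2 in CKO at 0 h, and 1 count in all at 48 h. For the 14 genes, the WT libraries at 48 h held 66, 12 and 10 counts in replicates 1, 2 and 3 (3.43, 0.631 and 0.454 CPM), and the CKO libraries 5, 2 and 8 (0.28, 0.11 and 0.404 CPM). Most counts of WT 48 h replicate 1 were in Ifna4 (25), Ifna2 (24) and Ifnb1 (10). The interferon alpha genes are near-identical copies, so counts could be split between them. Summed markers of B cells, plasma cells, myeloid cells and red cells and platelets were also highest of the 3 in this library. Those of NK cells (268, 273 and 236 CPM), CD4 T cells (77.0, 96.7 and 76.9) and CD8 T cells were highest in replicate 2. The summed level of 10 B cell markers was 74.6 CPM in WT 48 h replicate 1 and 37.3 and 43.2 in replicates 2 and 3, and in CKO at 48 h it was 76.5, 47.3 and 55.3. That of 5 plasma cell markers was 226 CPM in WT 48 h replicate 1 against 171 and 160, that of 10 myeloid markers 10.07 against 7.20 and 5.80, and that of 6 red cell and platelet markers 0.623 against 0.421 and 0.136. Of 8 markers of plasmacytoid dendritic cells, the specialised interferon producers, 2 were at 0 in every 48 h library, among them Siglech, which defines them in mice. Their summed level was 43.1, 44.6 and 48.3 CPM in WT and 60.6 to 67.9 CPM in CKO at 48 h. The part of the ligand counts and of these marker lists in the members' levels was not tested.

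**Figure D5:**
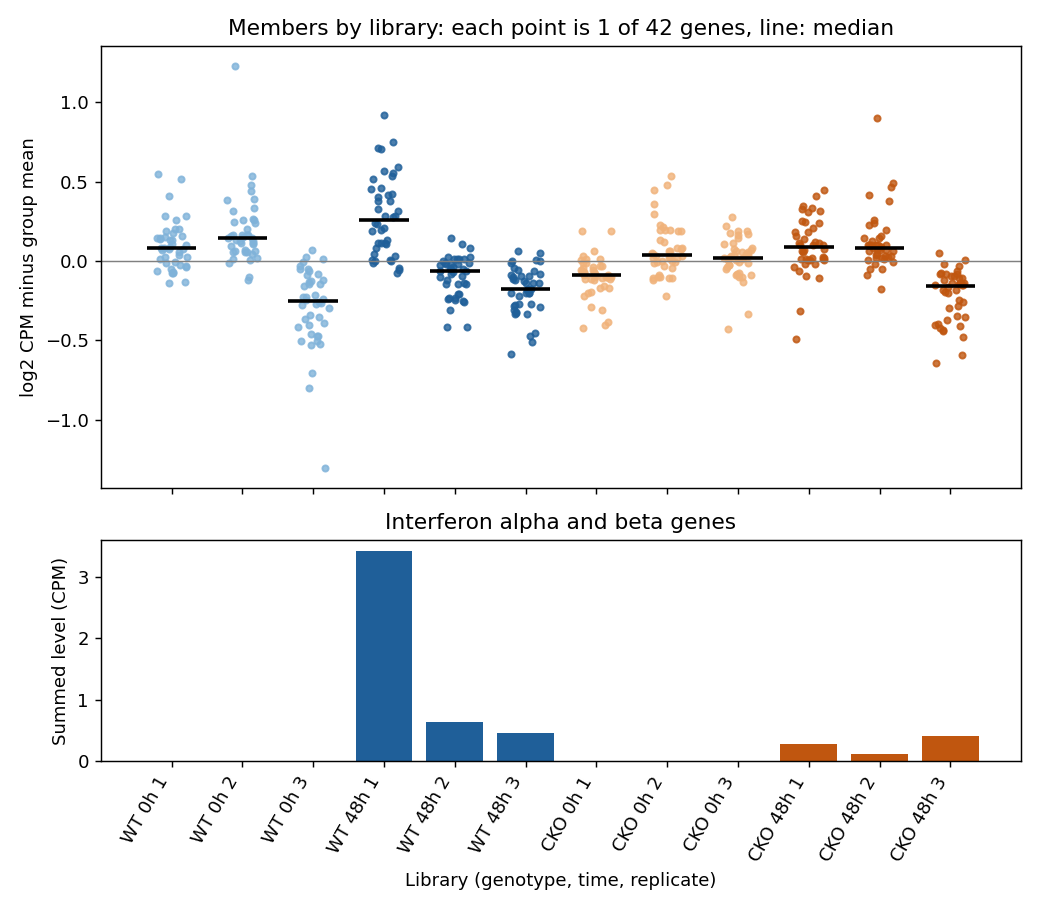
Upper panel: for each library (horizontal axis), the log2 CPM of each of the 42 genes minus its group mean (points, vertical axis) and the median (black line). Lower panel: summed CPM of 14 interferon alpha and beta genes, without Ifnab, as bars from 0. WT 48 h replicate 1 has the highest median (0.259) and the highest ligand sum (3.43 CPM).

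At 0 h, WT replicate 1 held 704 CPM of B cell markers where the other WT libraries held 368 and 364 and the CKO libraries 241 to 313, and at 48 h all libraries were at or under 76.5 CPM. Of the 10 B cell markers, 10 fell in WT and 9 in CKO with time, and none passed the test between genotypes at either time. The summed level of 10 myeloid markers was 53.2 to 106 CPM at 0 h and 5.56 to 12.01 at 48 h, with none called between genotypes. The 6 NK cell markers summed to 203 to 391 CPM at 0 h and 168 to 273 at 48 h. Singly, 5 of them fell and 1 rose with time in each genotype, so the sum hides the fall of most. The 4 CD4 T cell markers summed to 56.6 to 105 CPM over all libraries. The 6 red cell and platelet markers summed to 10.04 to 32.2 CPM at 0 h and under 1 CPM at 48 h. No NK, CD4 T cell or red cell and platelet marker had a call between genotypes. Of the plasma cell markers 1 was lower in CKO at 48 h, of the plasmacytoid dendritic cell markers 1 was higher in CKO at each time, and of the CD8 T cell markers 1 was lower at 0 h and 2 at 48 h. Their part in the differences between groups was not tested.

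Other genes of the interferon pathway were 139 in all, of which 136 were matched and 110 were tested. With time they split about evenly, as all genes did. WT had 46 called higher (38.7% of all genes were) and 46 called lower (39.1% of all genes). CKO had 43 called higher (38.5% of all genes) and 51 called lower (39.2% of all genes). Between genotypes 7 of the 110 were higher in CKO at 0 h (4.1% of all genes were) and 2 lower (3.38% of all genes), and 2 were higher at 48 h (2.35% of all genes) and 13 lower (2.19% of all genes). Ifngr2, a chain of the interferon gamma receptor, was higher in CKO at both times (0.43 and 0.64) and fell from 304 to 335 CPM to 21.5 to 23.5 with stimulation in WT. Ifng, the type II interferon gene, rose from 8.31 ± 2.92 CPM (SD, n = 3) to 244 ± 95.6 in WT and from 15.2 ± 7.47 to 563 ± 125 in CKO. Its 48 h libraries did not overlap, and the difference of 1.20 ± 0.409 did not pass the test (adjusted p = 0.174). Many members also respond to interferon gamma.

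A further 71 interferon-induced genes outside the set, 68 of them tested, gave 11 that were lower in CKO at 48 h, where 2.19% of all genes were lower, with a median difference of -0.20. The 6 with the smallest adjusted p were Ifi206 (-0.86), Samd9l (-0.51), Slfn8 (-0.45), Phf11a (-1.25), Phf11c (-0.52) and Shisa5 (-0.36), of which Ifi206, Slfn8 and the Phf11 genes have close copies. Samd9l, a gene that limits virus replication and cell growth, had 130, 139 and 102 CPM in CKO and 193, 171 and 162 in WT (adjusted p = 0.00774). Upstream of interferon, Tlr7, an endosomal sensor of single-stranded RNA, was lower in CKO at 12.6 to 17.5 CPM against 21.2 to 26.1 (-0.74 ± 0.178, adjusted p = 0.0219), and so was its adaptor Myd88 (-0.31 ± 0.079, adjusted p = 0.0248). Among 12 brakes on the pathway, Tnfaip3, which encodes A20, was higher in CKO at 48 h (0.22, adjusted p = 0.0394), and the other 11 did not pass the test. Socs1, a blocker of JAK kinases and one of those 11, stood at 41.9 ± 5.21 CPM (SD, n = 3) in WT and 38.1 ± 2.07 in CKO at 48 h.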

How the data were processed

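The deposited table held whole-number raw counts per Ensembl gene for 12 libraries. The submitters' processing notes name cutadapt, HISAT2 2.2.1, DESeq2 and the build GRCm39; the sources used here do not give the counting tool or its use of strand. Symbols were matched to gene IDs, and the counts the authors deposited were analysed with edgeR 4.0.16 (R 4.3.3): filterByExpr on the 4 groups, TMM scaling, and a quasi-likelihood fit of all 12 libraries (8 residual degrees of freedom). Adjusted p-values are Benjamini-Hochberg over 15935 genes, two-sided; SE is the log2 change divided by the square root of F. The common biological coefficient of variation was 0.0999, and no 2 libraries were identical. The fit was tested on simulated data. Exon lengths came from GENCODE vM21. Promoter windows and the coordinates printed with them came from RefSeq (GRCm38.p6), not the GRCm39 build, and were matched to the members by symbol.

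All 42 genes could be named. Full statistics were kept to the 12 smallest adjusted p per comparison and to genes whose result needed them, and other pathway genes to 6 per list, chosen by smallest adjusted p. The members and lists were chosen with earlier results of these data known. Alternatives were other scalings, filters and tools (DESeq2 1.42.0), a replicate block, fits of the compared groups alone, and leaving libraries out.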

Additional observations from a re-analysis of the deposited data

Results flagged for a closer look

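The difference between the responses of the 2 genotypes (CKO change minus WT change, log2, edgeR's quasi-likelihood test) passed the threshold for 2 members and for 3 other genes of the pathway. It was -0.4009 for Sp100 (adjusted p = 0.0343) and 1.78 for Trim30c (adjusted p = 0.0112). It was 1.081 for Irf5, an interferon regulatory factor (adjusted p = 0.0195), which went from 6.54 ± 0.464 CPM (SD, n = 3) to 22.2 ± 1.74 in CKO and from 9.79 ± 2.5 to 15.7 ± 2.72 in WT. It was -0.6931 for Irf2bp2, a partner of the repressor IRF2 (adjusted p = 0.0102), which fell from 128 ± 20 CPM to 61.5 ± 4.71 in CKO and from 96.4 ± 4.45 to 74.6 ± 3.92 in WT. It was -0.5124 for Samhd1, which breaks down deoxynucleotides (adjusted p = 0.0187) and rose from 547 ± 42.9 CPM to 807 ± 53.1 in WT and stood at 678 ± 27.1 and 701 ± 77.6 in CKO. Groups of 3 libraries are too small for a check of single outlying values.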

How the results depend on the processing

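Of the members called in the responses, 33 of 34 in WT and 28 of 30 in CKO kept their call in every alternative. Cmpk2 lost it in WT without replicate 1 at both times (adjusted p = 0.0666), and Mx2 and Xaf1 lost it in CKO when single libraries were left out. Calls were also gained in at least 1 alternative: Adar, Ifit3, Oasl1 and Oasl2 in WT, Cmpk2, Ifnar2, Trim30c and Zbp1 in CKO, and 7, 11 and 10 members in the comparisons of genotypes at 0 h, at 48 h and of the responses. How many of all genes gained a call in this way was not counted. Between genotypes at 0 h, 2 members were higher without a count filter, in a fit of those 2 groups and without WT replicate 1 at both times. In that order, these fits called 1563, 1079 and 1495 genes in all. Without a filter 7 members were lower. At 48 h, 13 members were lower and 1204 genes in all were called without a filter. With DESeq2, 9 members were lower and 937 genes were called in all. A fit of the 2 groups gave 3 members lower and 699 genes in all. For the difference of responses, no filter gave 3 higher, 7 lower and 576 genes in all, DESeq2 gave 3 lower and 417 in all, and the fit without WT replicate 1 at both times gave 2 lower and 368 in all. Leaving out 1 library gave, at 0 h, 0 to 1 higher, 0 to 4 lower and 689 to 1201 genes in all; at 48 h, 2 to 6 lower and 345 to 746 genes in all; and for the difference of responses 1 to 3 higher, 0 to 2 lower and 115 to 330 in all. The median CKO response ranged from 0.35 to 0.68. The change of Ifit3 in CKO was 0.2769 without CKO 48 h replicate 1 and reversed to -0.561 without replicate 2. The cause of these shifts was not tested. Members at under 10 CPM, such as Trim30c and Ifi44, rest on few reads. Their standard errors were not the largest of the set. For the WT response they were 0.25 for Trim30c and 0.392 for Ifi44, against 0.545 for Mx2.

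Same-numbered libraries correlated over genes at -0.011 to 0.162 over all pairs of groups, and at 0.0424 to 0.162 between the times of a genotype. Not all were above 0.1, so the numbers were not taken as pairs. Between the times of a genotype, 6 of 6 correlated best with their own number. This is a hint from the data only, and the main fit of the responses does not use it. With the replicate number as a block, 5 members were lower at 0 h, where 1313 genes were called in all (1192 in the main fit). At 48 h 10 members were lower, where 848 genes were called in all (724 in the main fit). In the difference of responses 2 members were higher and 2 lower (1 and 1 in the main fit), counts that are not set against all genes called with the block. In that difference Ifit2 (-0.51, adjusted p = 0.026) and Ifih1 (0.56, adjusted p = 0.036) passed with the block, and at 48 h the block brought in Isg15 (adjusted p = 0.0291), Oas2, Trim30a, Rtp4 and Xaf1. In the responses it brought in Ifit3, Oasl1 and Oasl2 in WT and Zbp1 in CKO. A block within each genotype gave 2 higher, 4 lower and 350 genes in all for that difference, with Ifit2 (adjusted p = 0.0145), Ifih1, Zbp1 and Isg15 among them. It was not used for the genotype comparisons, because there it would compare only replicate 1 of each genotype.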
